A study of Homo sapiens with 21 samples.

Results

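Antisense long non-coding RNAs (lncRNAs) of SK-N-BE(2) neuroblastoma cells were followed through the silencing of 2 subunits of a chromatin remodeller, each beside the gene whose name it carries. They were chosen as the rows of the expression table with the biotype lncRNA, a symbol ending in -AS and a number, and a mean of 50 or more over the 3 Control libraries, and 175 of the table's 60728 genes met this rule. The unit throughout is the deposited value, a read number divided by 1 scaling factor per library. The table held 1384 rows with such a symbol, of which 1209 lay below the minimum and 468 were at 0 in all 21 libraries. The members were thus selected on their Control level, which is given only as a description. The members closest to the minimum had Control means of 50.1, 50.2 and 51.0, and the rows just below it had 49.4, 49.1 and 48.7. All 175 members passed the filter on low values that left 18584 genes to be tested. A sense partner was found in the table for 173 members, since HOXD-AS2 and RPARP-AS1 had none, and 163 of these pairs had a partner that was tested as well.

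SK-N-BE(2) is an established neuroblastoma line grown from a bone marrow metastasis with MYCN amplification. The 21 libraries covered 7 conditions of 3 libraries each: Control, which received a non-silencing construct, the shARID1A pair (shARID1A.2 and shARID1A.4), the shARID1B pair (shARID1B.2 and shARID1B.3), and the shARID1A/B pair (shARID1A/B.2.3 and shARID1A/B.4.2). All cells had received lentiviral particles carrying short hairpin RNAs (shRNAs), by their names 2 shRNAs against ARID1A, 2 against ARID1B and 2 combinations, and RNA was taken 72 h later from triplicate cultures of mixed transduced cells rather than clones. Polyadenylated RNA was sequenced, so antisense transcripts without a poly(A) tail were not measured. Libraries held 27954334 to 41077638 reads, with a median of 34973565. All 10 adrenergic neuroblastoma markers examined had a Control mean of 50 or more, and so did 8 of 10 mesenchymal markers. The T cell and B cell markers were at or near 0. The myeloid markers were low but present, with a summed Control level of 31.34 to 39.03, most of it CD14 with a mean of 28.96.

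ARID1A and ARID1B are alternative large subunits of BAF, an ATP-dependent complex that slides and ejects nucleosomes and keeps enhancers open. Antisense lncRNAs are transcribed from the strand opposite another gene. Some start beside that gene's promoter and run away from it, so that both transcripts share 1 stretch of open chromatin, and others start inside the gene from a promoter of their own. Some are known to act on the gene they overlap, others act elsewhere, and for many no function is known. In neuroblastoma the pair HAND2-AS1 and HAND2, which share a bidirectional regulatory region, is transcribed at high level with the adrenergic regulators.

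The levels of the silenced genes did not follow all the labels. ARID1A had values of 6097, 6374 and 6463 in Control. It lay at 2109 to 2169 in shARID1A.2, at 2157 to 2289 in shARID1A.4, at 1882 to 1962 in shARID1B.2 and at 2450 to 2507 in shARID1B.3. In shARID1A/B.2.3 it lay at 5510 to 5752 and in shARID1A/B.4.2 at 5352 to 5589. ARID1A was thus lowest in the libraries labelled shARID1A and shARID1B and only slightly below Control in those labelled shARID1A/B. ARID1B was at 5791 to 5804 in Control. It was at 2224 to 2252 in shARID1A.2 and at 3065 to 3126 in shARID1A.4, whereas it was at 4913 to 5056 in shARID1B.2 and at 6038 to 6182 in shARID1B.3. In shARID1A/B.2.3 it lay at 2540 to 2651 and in shARID1A/B.4.2 at 1881 to 1955. The libraries labelled shARID1A therefore had both transcripts reduced, those labelled shARID1B had mainly ARID1A reduced and those labelled shARID1A/B had mainly ARID1B reduced. By the limma test described below, the 2 genes were called lower than Control in 11 comparisons, all except ARID1B in shARID1B.3. The smaller decreases of ARID1A in shARID1A/B and of ARID1B in shARID1B.2 were thus called as well. Labels are used below as written, and each condition name stands for the libraries carrying that label.

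Most of the antisense genes began inside their partners. In the GENCODE 29 annotation of GRCh38, 100 of the 173 placed pairs had an antisense start within the partner's body and 17 antisense genes lay wholly inside it. The 2 starts were within 1 kb of each other in 72 pairs, and in 101 pairs the genes overlapped with starts farther apart. Exons overlapped in 122 pairs. The kit marked strand, but how strand was handled in counting is not given in the sources used here, so reads of overlapping exons are uncertain between partners. TMEM108-AS1 (ENSG00000251011, chr3:133246106-133257188, minus strand) and HECW2-AS1 (ENSG00000229056, chr2:196260024-196264204, plus strand) lay wholly inside the bodies of TMEM108 and HECW2 and shared no exon base with them. Their starts were 218797 and 333668 bases from the partner's start.

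RefSeq promoter windows, running from 250 bases before to 50 bases after each listed start, were found for 144 members. They held a median of 24 CpG dinucleotides, against 14 over all 35116 promoter windows of the table. The GC box GGGCGG was present on either strand in 59.7% of the members' windows and in 45.0% of all windows. The AP-1 motif TGANTCA was present in 2.08% of the members' windows and in 7.71% of all windows. With only the first-listed window of each of 27305 genes, the median was also 14 CpG. The compared windows belong to genes of any expression level, whereas the members were chosen for their Control level. No set matched for expression was compared, so these differences cannot be read as traits of antisense promoters. The windows of 5 members are shown in GRCh38.p14, 5′ to 3′ along the antisense transcript with each CG in capitals, because the first 2 belong to the members with the largest decreases and differ in sequence from those of 3 members that start beside their partners. The TMEM108-AS1 window (chr3:133257072-133257371, minus strand) held 2 CpG and the HECW2-AS1 window (chr2:196259774-196260073, plus strand) held 1. The windows of TMPO-AS1 (chr12:98516177-98516476, minus strand), DICER1-AS1 (chr14:95157438-95157737, plus strand) and CCNT2-AS1 (chr2:134918557-134918856, minus strand) held 39, 38 and 34.
TMEM108-AS1: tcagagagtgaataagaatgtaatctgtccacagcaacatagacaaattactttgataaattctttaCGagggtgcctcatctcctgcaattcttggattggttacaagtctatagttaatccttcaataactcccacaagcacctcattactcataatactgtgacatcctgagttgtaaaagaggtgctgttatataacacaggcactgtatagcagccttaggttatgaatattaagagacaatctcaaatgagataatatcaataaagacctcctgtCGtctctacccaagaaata
HECW2-AS1: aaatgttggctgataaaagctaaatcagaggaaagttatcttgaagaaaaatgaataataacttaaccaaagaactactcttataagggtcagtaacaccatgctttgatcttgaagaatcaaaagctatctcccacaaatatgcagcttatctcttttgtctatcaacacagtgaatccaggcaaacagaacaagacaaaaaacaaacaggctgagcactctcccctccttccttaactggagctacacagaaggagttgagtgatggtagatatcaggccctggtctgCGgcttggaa
TMPO-AS1: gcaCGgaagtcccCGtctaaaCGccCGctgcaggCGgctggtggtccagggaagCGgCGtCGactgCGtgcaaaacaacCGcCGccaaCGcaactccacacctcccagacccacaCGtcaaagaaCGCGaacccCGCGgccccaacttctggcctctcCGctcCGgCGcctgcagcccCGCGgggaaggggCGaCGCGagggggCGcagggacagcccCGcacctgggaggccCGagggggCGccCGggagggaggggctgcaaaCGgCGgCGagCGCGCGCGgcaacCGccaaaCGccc
DICER1-AS1: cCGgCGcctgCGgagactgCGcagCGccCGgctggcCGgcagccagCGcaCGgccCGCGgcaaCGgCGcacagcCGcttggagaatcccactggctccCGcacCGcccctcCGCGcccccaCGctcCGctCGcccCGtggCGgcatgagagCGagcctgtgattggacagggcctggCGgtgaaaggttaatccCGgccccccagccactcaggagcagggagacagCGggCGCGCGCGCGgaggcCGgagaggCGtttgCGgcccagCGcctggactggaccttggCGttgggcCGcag
CCNT2-AS1: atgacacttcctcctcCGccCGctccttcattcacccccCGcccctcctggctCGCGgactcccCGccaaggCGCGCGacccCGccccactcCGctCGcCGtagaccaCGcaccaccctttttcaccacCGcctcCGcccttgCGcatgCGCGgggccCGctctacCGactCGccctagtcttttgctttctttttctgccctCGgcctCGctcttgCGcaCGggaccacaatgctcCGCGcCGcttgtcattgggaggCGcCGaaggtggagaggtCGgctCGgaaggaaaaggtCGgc
The first 2 sequences are AT-rich, with a GC content of 36.7% and 39.7%, and the TMPO-AS1 and DICER1-AS1 windows are CG-dense throughout, with 73.3% and 75.0%. How sequence relates to the response was not tested.

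In Control cells HAND2-AS1 was the most abundant member, at 20170 to 20532, and the median member had a mean of 155.8. Per kb of exon, the antisense level was below that of its partner in most pairs: among 167 pairs with both values above 0 the median ratio was 0.252, 45 antisense genes were below 0.1 times the partner and 37 were above it. HAND2-AS1 reached 958 per kb beside 5340 per kb for HAND2, and TMPO-AS1 120.0 per kb beside 1860 per kb for TMPO, which encodes lamina-associated polypeptides of the nuclear envelope. The order was the opposite for FGD5-AS1, at 485 per kb beside 1.41 per kb for FGD5, and for OIP5-AS1, an antisense lncRNA studied as a microRNA sponge, at 810 per kb beside 389 per kb for OIP5. These antisense genes were hence expressed where their partner was nearly silent or weaker.

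Antisense lncRNAs moved upwards on balance in several conditions. In shARID1A.2, 112 of 175 members were higher than Control and 34 lower at an adjusted p under 0.05 (limma on log2(value + 1), Benjamini-Hochberg over all genes tested), where 37.9% of all genes tested were higher and 38.2% lower. In shARID1A/B.4.2, 97 were higher and 34 lower (all genes 35.1% and 36.1%). In shARID1B.2, 87 were higher and 30 lower (all genes 31.6% and 34%), and in shARID1B.3, 83 were higher and 31 lower (all genes 31.9% and 32%). The counts were closer to those of all genes in shARID1A.4, with 71 higher and 51 lower (all genes 37% and 36.6%), and in shARID1A/B.2.3, with 60 higher and 66 lower (all genes 35.2% and 34%). These 6 comparisons share the 3 Control libraries.

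The median log2 fold change of the members was 0.43 in shARID1A.2, 0.05 in shARID1A.4, 0.22 in shARID1B.2, 0.22 in shARID1B.3, -0.05 in shARID1A/B.2.3 and 0.30 in shARID1A/B.4.2. Over the 13403 genes that also had a Control mean of 50 or more, the median was -0.10 in shARID1A.2 and -0.08 in shARID1A/B.4.2. The 632 other lncRNAs with such a mean had a median of 0.32 in shARID1A.2, with 54.1% higher and 23.4% lower, and of 0.23 in shARID1A/B.4.2, with 49.4% higher and 24.4% lower, so the upward balance was not particular to antisense lncRNAs. With a log2 fold change of at least 1 as well, 42 members were higher and 9 lower in shARID1A.2, where all genes tested gave 14.1% and 10.7%. The same counts were 28 and 11 in shARID1A/B.4.2 (all genes 10.3% and 8.14%), 13 and 16 in shARID1A.4 (9.32% and 12%), and 7 and 14 in shARID1A/B.2.3 (7.04% and 9.1%). Few members moved this far in shARID1B.2, with 7 and 6 (6.86% and 5.12%), and in shARID1B.3, with 2 and 6 (5.2% and 6.58%).

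Limits touch these counts in 2 ways. When both shRNA conditions of a label were pooled into 6 libraries, 48 members were higher and 21 lower for shARID1A, 22 and 4 for shARID1B, and 35 and 17 for shARID1A/B. Calls also became fewer over all genes tested, of which 17.8% were higher for shARID1A, 7.6% for shARID1B and 11.9% for shARID1A/B. Named members not called for shARID1B in the pooled fit included NRSN2-AS1 (0.94, adjusted p = 0.0788) and CCNT2-AS1 (-1.085, adjusted p = 0.0766). They also included TSPEAR-AS2 (0.83, adjusted p = 0.142), DICER1-AS1 (0.93, adjusted p = 0.203) and ROR1-AS1 (-0.46, adjusted p = 0.521). In that fit TMEM51-AS1 (-1.49, adjusted p = 0.155), LAMP5-AS1 (1.002, adjusted p = 0.0949), VLDLR-AS1 (0.94, adjusted p = 0.0757) and SOCS2-AS1 (0.62, adjusted p = 0.55) were not called for shARID1A, nor DDN-AS1 (1.06, adjusted p = 0.0748), DICER1-AS1 (0.66, adjusted p = 0.341), VLDLR-AS1 (1.02, adjusted p = 0.0722), LAMP5-AS1 (1.11, adjusted p = 0.0839) TMEM51-AS1 (-1.25, adjusted p = 0.28) and SOCS2-AS1 (0.46, adjusted p = 0.705) for shARID1A/B. Scaling to total reads, which moved the median of all genes to 0.19 in shARID1A.2, 0.15 in shARID1B.2 and 0.20 in shARID1A/B.4.2, gave 110 higher and 20 lower members in shARID1B.2 and 120 higher and 19 lower in shARID1A/B.4.2.

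**Figure D1:**
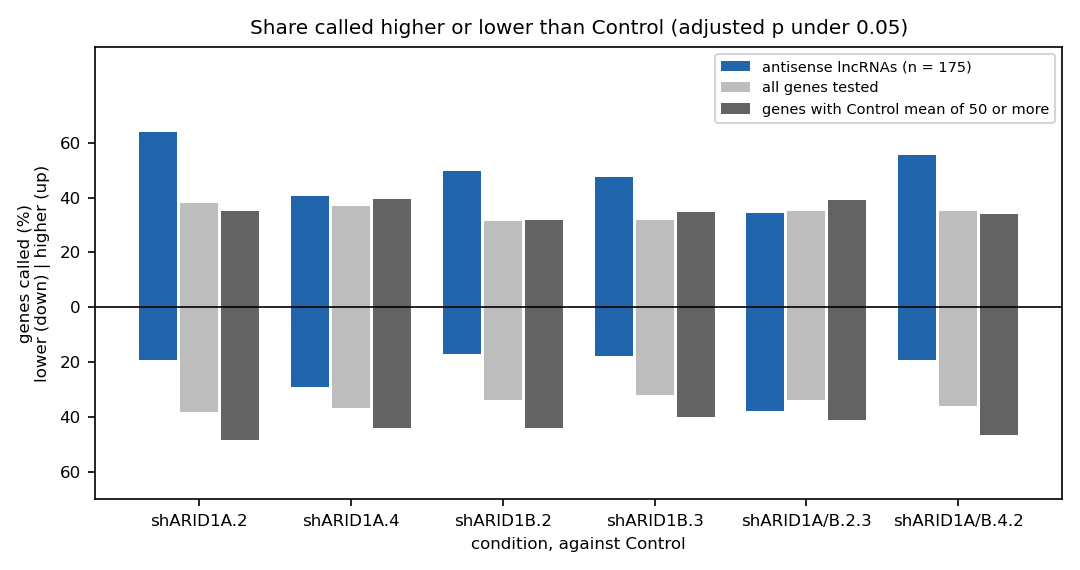
Share of genes called higher (bars up) or lower (bars down) than Control, in percent, for the 175 antisense lncRNAs, all 18584 genes tested and the 13403 genes with a Control mean of 50 or more, in each of the 6 silenced conditions. The antisense bars reach above both gene sets in shARID1A.2, shARID1B.2, shARID1B.3 and shARID1A/B.4.2, and lie near them in shARID1A/B.2.3.

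The largest decrease was that of TMEM108-AS1, antisense to the gene of a transmembrane protein of neurons. It had 762, 813 and 741 in Control, 12.5, 10.3 and 11.1 in shARID1A.2, and 11.7, 3.57 and 8.98 in shARID1A.4. It had 34.1, 45.2 and 20.45 in shARID1B.2, 53.8, 52.3 and 60.4 in shARID1B.3, 74.9, 61.5 and 80.8 in shARID1A/B.2.3, and 49.2, 60.3 and 52.5 in shARID1A/B.4.2. Every Control library was thus far above every silenced one, and the libraries labelled shARID1A were the lowest. The log2 fold change was -5.98 in shARID1A.2 and -6.54 in shARID1A.4 (SE 0.271 for each, adjusted p = 4.1e-16 and 6.92e-17). It was -4.56 in shARID1B.2, -3.78 in shARID1B.3, -3.40 in shARID1A/B.2.3 and -3.82 in shARID1A/B.4.2 (largest adjusted p = 3.82e-11). TMEM108 itself went from 6489 to 6702 in Control to 2435 to 2496 in shARID1A.2 and 5091 to 5273 in shARID1A/B.2.3. Its log2 fold changes were -1.42 and -0.35 there, so the sense transcript fell by far less.

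HECW2-AS1, antisense to the gene of a HECT-type ubiquitin ligase, had 109.2, 101 and 131 in Control and 4.86, 1.19 and 5.99 in shARID1A.4. It had 10.8, 13.4 and 10.02 in shARID1A.2, and 41.0, 38.6 and 44.96 in shARID1A/B.4.2. The groups did not overlap. The log2 fold change was -3.21 in shARID1A.2, -4.67 in shARID1A.4, -2.19 in shARID1B.2, -2.42 in shARID1B.3, -2.45 in shARID1A/B.2.3 and -1.43 in shARID1A/B.4.2 (SE 0.337, largest adjusted p = 0.000589). HECW2 fell as well, with log2 fold changes of -1.10 in shARID1A.2 and -0.54 in shARID1A.4. It was the shARID1A/B.4.2 libraries in which the antisense decrease, -1.43, and the sense decrease, -1.34, were close.

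ROR1-AS1, which lies inside the gene of the WNT5A receptor ROR1, separated the conditions. It had 153, 168 and 172 in Control, 29.1, 26.8 and 23.4 in shARID1A.2, 22.3, 14.6 and 23.4 in shARID1A/B.2.3, and 22.8, 13.9 and 13.1 in shARID1A/B.4.2. In shARID1B.3 it had 221, 186 and 195. The log2 fold change was -2.59, -2.995 and -3.27 in the first 3 silenced conditions named, and 0.29 in shARID1B.3 (SE 0.2, adjusted p = 0.217). ROR1 behaved differently in shARID1A/B.2.3, where its log2 fold change was -0.43, and in shARID1B.2, where ROR1 fell by 1.86 and ROR1-AS1 by 1.20 on the log2 scale.

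TMEM51-AS1 and TMPO-AS1, which start within 1 kb of their partners, fell in different conditions. TMEM51-AS1 had 226, 297 and 277 in Control, 44.0, 30.9 and 27.8 in shARID1A.2, and 55.6, 36.3 and 44.0 in shARID1A/B.4.2, but 279.7, 249.7 and 246 in shARID1A.4. Its log2 fold change was -2.94 in shARID1A.2 and -2.54 in shARID1A/B.4.2 (SE 0.162), and -0.04 in shARID1A.4 (adjusted p = 0.844). The partner TMEM51 had log2 fold changes of -3.13 in shARID1A.2, -1.63 in shARID1A/B.4.2 and -0.53 in shARID1A.4. TMPO-AS1 had 420.5, 407 and 382 in Control, 63.8, 51.1 and 51.6 in shARID1A/B.2.3, and 90.3, 82.1 and 84.8 in shARID1A.4. In shARID1A.2 it had 238 to 238.5 in 2 libraries and 229.7 in the other. Its log2 fold change was -2.85 in shARID1A/B.2.3 and -2.22 in shARID1A.4, but -0.77 in shARID1A.2 and -0.73 in shARID1A/B.4.2 (SE 0.0814). TMPO fell by 0.99, 0.84, 1.12 and 0.88 on the log2 scale in the same 4 conditions, so its decreases were more alike than those of TMPO-AS1.

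CCNT2-AS1, beside the gene of cyclin T2, a partner of the elongation kinase CDK9, had 122, 113 and 109.9 in Control, 16.5, 26.2 and 35.9 in shARID1A.4 and 32.4, 19.8 and 27.2 in shARID1A/B.2.3. Its log2 fold changes were -2.16 and -2.10 (SE 0.216), whereas those of CCNT2 were -0.05 (adjusted p = 0.125) and -0.10. ADAMTS9-AS2, whose partner encodes a secreted metalloproteinase that cleaves proteoglycans, fell by 2.16 on the log2 scale in shARID1A.4 (SE 0.189), from 69.3, 82.8 and 68.8 to 12.6, 20.2 and 14.97. ADAMTS9 fell there from 10849 to 10931 to 1167 to 1329, a log2 fold change of -3.13, so here the sense transcript moved further. ZNF710-AS1 fell by 1.72 on the log2 scale in shARID1A.4, from 235, 253 and 273 to 68.0, 85.6 and 75.9. Its partner, a zinc finger gene, rose by 0.86 in the same libraries.

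**Figure D2:**
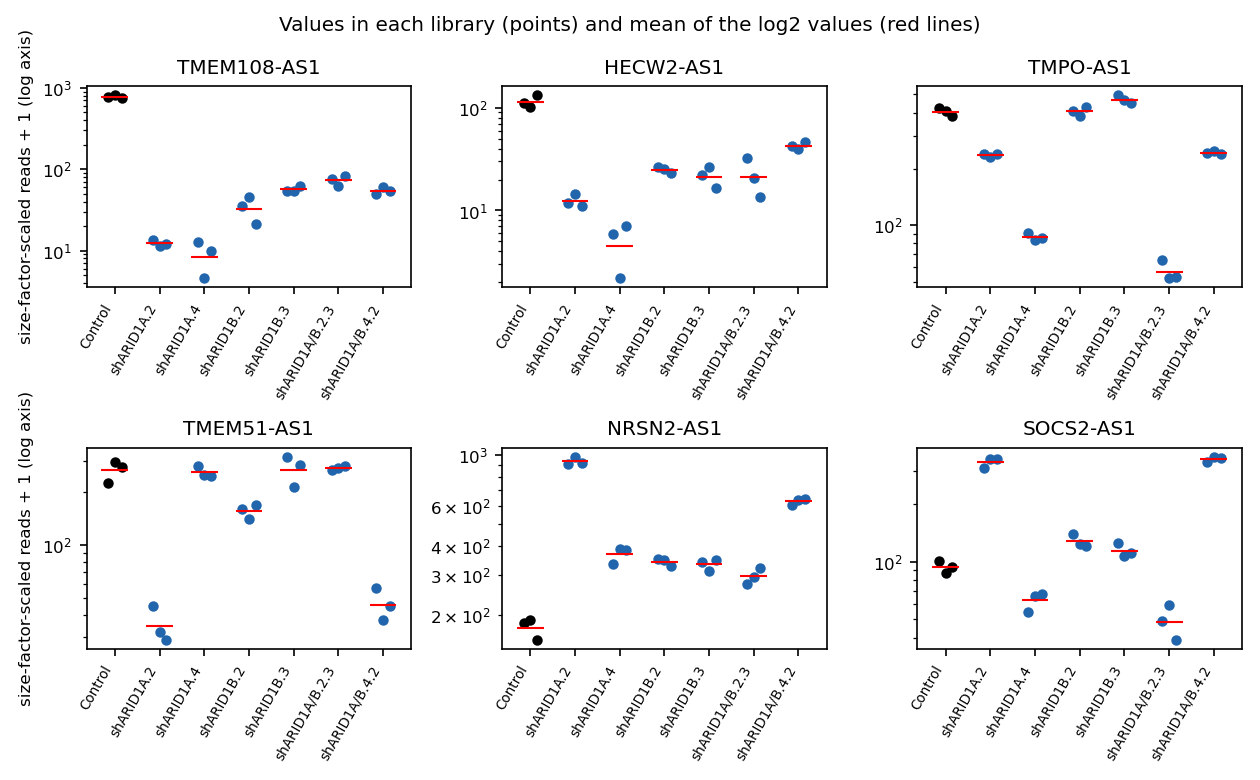
Deposited value plus 1 on a log axis in each of the 21 libraries, by condition, for 6 antisense lncRNAs, with the mean of the log2 values as a red line and Control in black. TMEM108-AS1 and HECW2-AS1 lie below Control in all silenced libraries, TMPO-AS1 is lowest in shARID1A/B.2.3 and TMEM51-AS1 in shARID1A.2, and NRSN2-AS1 is highest in shARID1A.2.

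NRSN2-AS1, overlapping the gene of a small membrane protein of neurons, had the largest increase in shARID1A.2 among the named members. It had 183, 189 and 155 in Control, 909, 979.5 and 919 in shARID1A.2, and 605, 633 and 638 in shARID1A/B.4.2. The log2 fold change was 2.41 and 1.83 there (SE 0.0743, adjusted p = 1.69e-19 and 6.4e-17), and 1.06 in shARID1A.4, 0.95 in shARID1B.2, 0.92 in shARID1B.3 and 0.74 in shARID1A/B.2.3. NRSN2 had log2 fold changes between -0.28, in shARID1B.2, and 0.32, in shARID1A.2. TSPEAR-AS2 rose from 65.8, 60.4 and 79.1 to 349.8, 338 and 381 in shARID1A.2, a log2 fold change of 2.37 (SE 0.13), while its partner TSPEAR had at most 5.82 in any library. SLC5A4-AS1 rose from 127, 111 and 114 to 571, 687 and 689 in shARID1A/B.2.3, a log2 fold change of 2.46 (SE 0.101), while SLC5A4, a member of the glucose transporter family, had at most 1.04 in any library.

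DICER1-AS1 starts beside the gene of the ribonuclease that cuts microRNA precursors. It had 115, 123 and 112 in Control, 538, 508 and 532 in shARID1A.2, 161, 149 and 154 in shARID1A.4, and 321, 316 and 303 in shARID1A/B.4.2. In shARID1A/B.2.3 it had 113, 94.8 and 121 and overlapped Control. DICER1-AS1 thus changed by a log2 fold change of 2.16 in shARID1A.2, 1.42 in shARID1A/B.4.2 and -0.10 in shARID1A/B.2.3 (SE 0.0879, adjusted p = 0.341 for the last). DICER1 had log2 fold changes of -0.75, -1.28 and -1.31 in these conditions. TMCC1-AS1 rose by 1.98 on the log2 scale in shARID1A.2 (SE 0.0555), from 426, 515 and 477 to 1788, 1915 and 1894, and TMCC1, which encodes a protein of the endoplasmic reticulum, rose by 0.58. RPARP-AS1 rose by 1.88 (SE 0.0607), PAXBP1-AS1 by 1.88 (SE 0.111) and LAMP5-AS1 by 1.90 (SE 0.102) in the same libraries.

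A second set of increases was larger in the libraries labelled shARID1A.4 and shARID1A/B.2.3. DDN-AS1, antisense to the gene of dendrin, a postsynaptic protein, had 52.9, 43.7 and 71.9 in Control, 241, 233 and 235 in shARID1A.4 and 195, 158 and 177 in shARID1A/B.2.3. Its log2 fold change was 2.08 and 1.66 (SE 0.148), and DDN rose by 2.36 and 1.88. VLDLR-AS1 had 92.8, 73.9 and 59.6 in Control, 217, 262 and 275 in shARID1A.4, and 74.8, 87.6 and 84.6 in shARID1A.2. VLDLR-AS1 had a log2 fold change of 1.74 in shARID1A.4 and 0.14 in shARID1A.2 (SE 0.147, adjusted p = 0.377 for the second). ATP2B1-AS1, beside the gene of a plasma membrane calcium pump, was lower instead in shARID1A/B.2.3, at 11.1, 11.5 and 14.6 against 61.1, 38.1 and 51.4, a log2 fold change of -1.92 (SE 0.227). ATP2B1 fell there by 1.24 on the log2 scale.

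**Figure D3:**
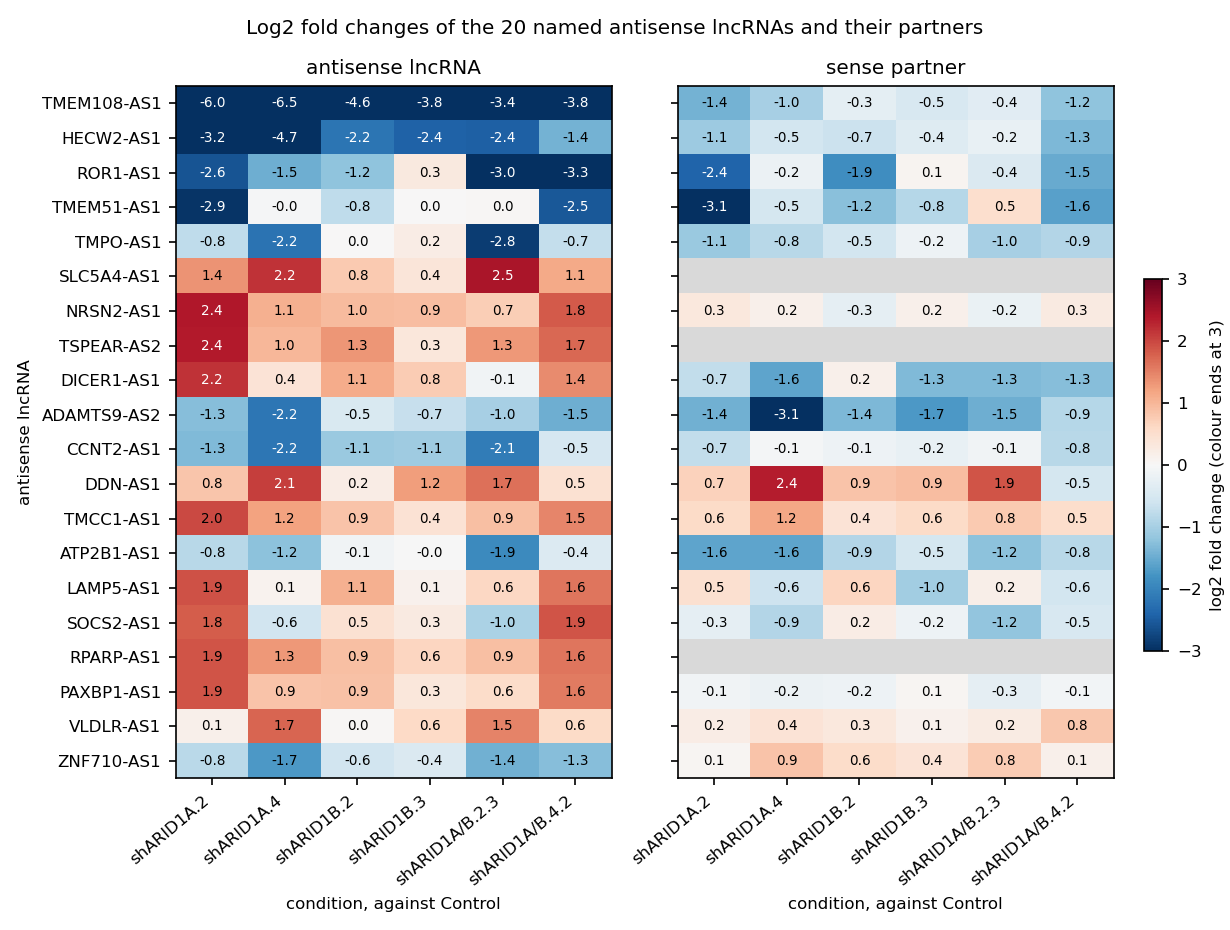
Log2 fold change against Control, as colour and number, of the 20 named antisense lncRNAs (left) and of their sense partners (right) in the 6 silenced conditions, with partners not tested or absent in grey. The strong decreases of TMEM108-AS1 and HECW2-AS1 stand beside weaker ones of their partners, and NRSN2-AS1 and DICER1-AS1 increase in shARID1A.2 where NRSN2 changes by 0.32 and DICER1 by -0.75.

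The sense partners were compared with the antisense genes within each comparison. In shARID1A.2, where all genes tested gave 37.9% higher and 38.2% lower, 53 of 163 partners were higher (32.5%) and 94 lower (57.7%), and 105 of their antisense genes were higher and 33 lower. Both transcripts were higher in 36 pairs and lower in 20, the antisense was higher and the sense lower in 60, and the reverse held in 7. In shARID1A/B.4.2 the corresponding counts were 27, 21, 50 and 7, and in shARID1B.2 they were 33, 14, 32 and 8. In shARID1B.3 they were 36, 16, 24 and 9, in shARID1A.4 31, 29, 20 and 14, and in shARID1A/B.2.3 22, 32, 20 and 23. Pairs that moved the same way thus outnumbered those that moved apart in shARID1A.4, shARID1B.2, shARID1B.3 and shARID1A/B.2.3. The number of opposed pairs also depends on how many antisense and how many sense genes were called in each direction, and was not tested. The partners' median log2 fold change was -0.24 in shARID1A.2 and -0.21 in shARID1A/B.4.2, opposite in sign to that of the antisense genes of the same pairs, 0.43 and 0.29. As given above, genes with a Control mean of 50 or more also had a negative, smaller median in both conditions. A lower median was therefore not particular to partners. Across the 163 pairs of shARID1A.2 Pearson's r between the 2 log2 fold changes was 0.28 and so positive, a description over genes that share libraries.

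Pairs whose starts lay within 1 kb had higher antisense medians than the overlapping pairs with starts apart. The medians were 0.62 and 0.26 in shARID1A.2, 0.19 and -0.08 in shARID1A.4, and 0.42 and 0.20 in shARID1A/B.4.2. They were 0.29 and 0.17 in shARID1B.2, 0.24 and 0.14 in shARID1B.3, and 0.03 and -0.22 in shARID1A/B.2.3. These values come from 71 and 92 pairs and were not tested against each other. The sense medians of the same sets were -0.18 and -0.25 in shARID1A.2.

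**Figure D4:**
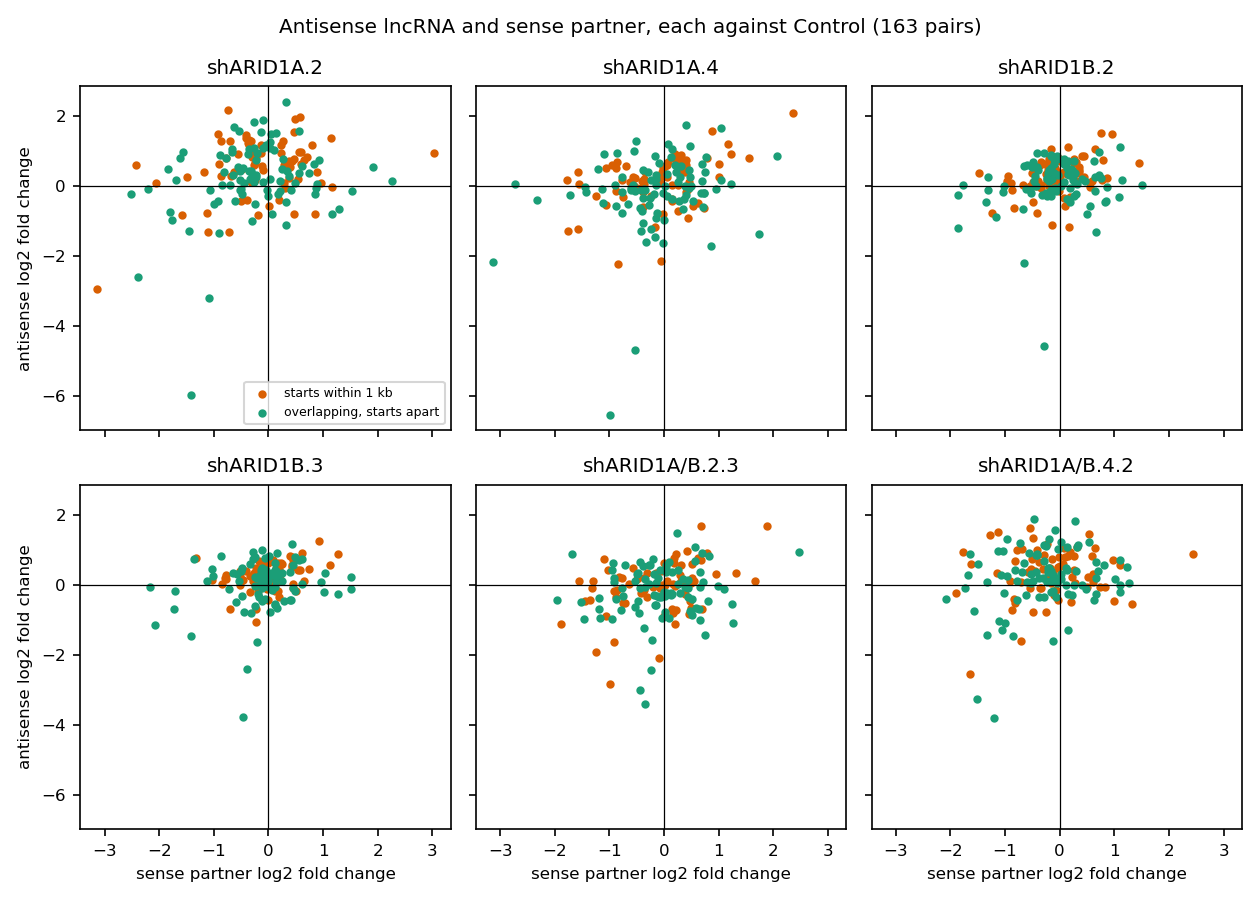
Log2 fold change of the sense partner (horizontal axis) and of the antisense lncRNA (vertical axis) against Control for 163 pairs in each silenced condition, coloured by whether the starts lie within 1 kb. Points in the upper left part have a higher antisense and a lower sense level, as called in 60 pairs of shARID1A.2 and 20 of shARID1A/B.2.3.

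Only 3 pairs changed by at least 1 on the log2 scale in opposite directions, both called, in any of the 6 comparisons with Control. DICER1-AS1 and DICER1 did so in shARID1A/B.4.2, at 1.42 and -1.28. SCAMP1-AS1 and SCAMP1, the gene of a secretory carrier membrane protein, did so there as well. SCAMP1-AS1 had 209 to 211 in Control and 585 to 598 in shARID1A/B.4.2, and SCAMP1 had 4554 to 4931 and 2041 to 2206, giving log2 fold changes of 1.49 and -1.13. PRKG1-AS1 and PRKG1, a cGMP-dependent protein kinase gene, did so in shARID1A.4 and shARID1A/B.2.3. PRKG1-AS1 had 127, 106 and 129 in Control and 37.9, 60.7 and 42.9 in shARID1A.4, whereas PRKG1 had 8.22, 14.6 and 14.4 and then 36.9, 46.4 and 44.9. The log2 fold changes were -1.36 and 1.74 in shARID1A.4 and -1.10 and 1.2595 in shARID1A/B.2.3, and PRKG1 remained a gene of low counts.

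HAND2-AS1 and HAND2 moved apart in shARID1A.2 and shARID1A/B.4.2 and fell together in the other 4 conditions. HAND2 encodes a basic helix-loop-helix factor of the sympathetic lineage. HAND2-AS1 had 22696 to 22836 in shARID1A.2 and 29803 to 31632 in shARID1A/B.4.2, against 20170 to 20532 in Control. HAND2 had 5778 to 6075 and 6791 to 6944, against 19025 to 19481. The log2 fold changes were 0.16 and 0.60 for HAND2-AS1 (SE 0.0258) and -1.70 and -1.49 for HAND2 (SE 0.0305). In shARID1A.4 both fell, with HAND2-AS1 at 9362 to 10009 and a log2 fold change of -1.05, and HAND2 at 14452 to 15069 and -0.39. Within libraries, log2 HAND2-AS1 minus log2 HAND2 was 0.08 ± 0.009 (SD, n = 3) in Control, 1.94 ± 0.036 in shARID1A.2, 2.17 ± 0.047 in shARID1A/B.4.2 and -0.59 ± 0.086 in shARID1A.4. It was 0.16 ± 0.032 in shARID1B.2, -0.28 ± 0.044 in shARID1B.3 and -0.32 ± 0.078 in shARID1A/B.2.3. Their exons overlap by 867 bases, 4.09% of the exon bases of HAND2-AS1. Fewer cells of a type and less RNA per cell cannot be told apart in such bulk libraries.

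**Figure D5:**
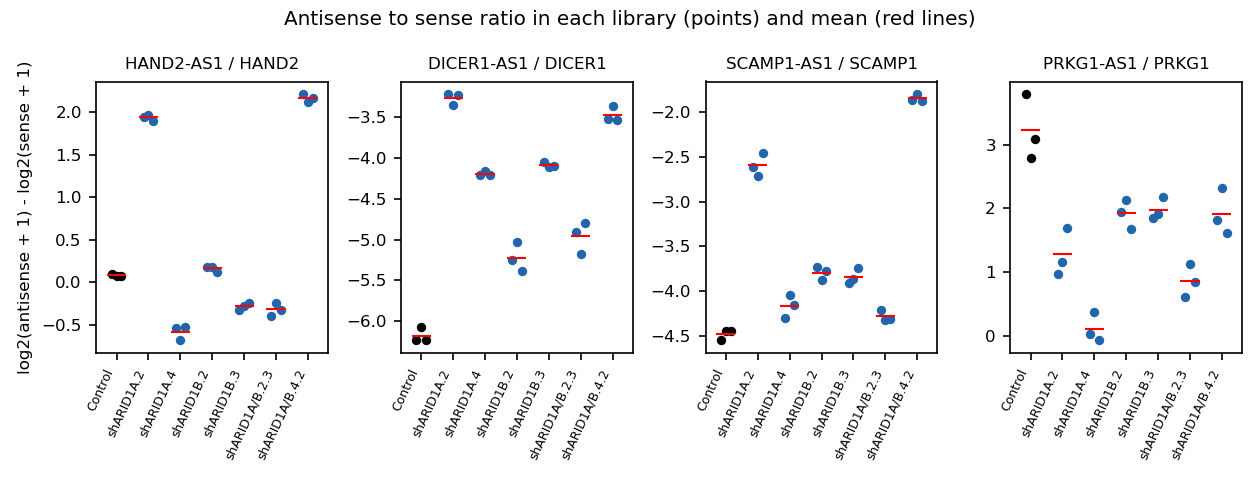
Log2 of antisense plus 1 minus log2 of sense plus 1 in each library, by condition, for 4 pairs, with means as red lines and Control in black. For HAND2-AS1 and HAND2 it was 0.08 in Control, near 2 in shARID1A.2 and shARID1A/B.4.2 and below 0 in shARID1A.4, and for PRKG1-AS1 and PRKG1 it is highest in Control.

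Lists of members by the kind of partner were described beside the share of all 175 members, which was 64% higher and 19.4% lower in shARID1A.2, 40.6% and 29.1% in shARID1A.4, 49.7% and 17.1% in shARID1B.2, 47.4% and 17.7% in shARID1B.3, 34.3% and 37.7% in shARID1A/B.2.3, and 55.4% and 19.4% in shARID1A/B.4.2. No list was tested against the other members. Of 13 antisense genes with zinc finger partners, which encode DNA-binding proteins, 10 were higher and 1 lower in shARID1A.2 (all genes tested 37.9% and 38.2%) with a median log2 fold change of 0.74, and 9 were higher and 2 lower in shARID1A/B.4.2 (all genes 35.1% and 36.1%) with a median of 0.67, where the members overall had 0.43 and 0.30. In shARID1A.4 6 were higher and 1 lower, in shARID1B.2 7 and 3, in shARID1B.3 5 and 2, and in shARID1A/B.2.3 6 and 3. ZNF213-AS1 had log2 fold changes of 1.49 and 1.19 in shARID1A.2 and shARID1A/B.4.2, and ZNF790-AS1 of 1.17 and 1.08. ZNF710-AS1, described above, was the one lower in shARID1A.2.

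Among 8 members beside adrenergic or neuronal genes, 4 were higher and 1 lower in shARID1A.2, and 2 were higher and 4 lower in shARID1A.4, where all genes tested gave 37.9% and 38.2%, and 37% and 36.6%. The list included DBH-AS1 and NRSN2-AS1, whose partners are not regulators, and NRSN2-AS1 was higher in both conditions. PROX1-AS1, RORB-AS1, SATB1-AS1 and ID2-AS1 were not listed. In both conditions SATB1-AS1 was higher, RORB-AS1 lower and PROX1-AS1 not called. ID2-AS1 was lower in shARID1A.2 and higher in shARID1A.4. GATA2-AS1, beside the gene of a haematopoietic and sympathetic transcription factor, had 798, 885 and 866 in Control and 379, 352 and 353 in shARID1A.4, a log2 fold change of -1.23 (SE 0.0585), while GATA2 had -0.24. In shARID1A/B.2.3 GATA2-AS1 fell by 0.86 on the log2 scale and GATA2 rose by 0.51. DLX6-AS1, a lncRNA of forebrain interneurons, rose by 1.07 in shARID1A.2. GATA3-AS1 rose by 0.72 in shARID1B.3, where GATA3 rose by 0.61. The summed level of 10 adrenergic markers, most of it MYCN, was 202500 to 207400 in Control, 484800 to 504000 in shARID1A.4, 293800 to 301400 in shARID1A/B.2.3 and 153800 to 159000 in shARID1A.2. Its part in the list's counts was not tested.

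Of 9 members beside adhesion, matrix, guidance or mesenchymal genes, 5 were higher and 3 lower in shARID1A.2, and 2 were higher and 6 lower both in shARID1A.4 and in shARID1A/B.2.3, with medians of -0.90 and -0.73. All genes tested gave 37.9% higher and 38.2% lower in shARID1A.2, 37% and 36.6% in shARID1A.4, and 35.2% and 34% in shARID1A/B.2.3. These counts, too, depend on the choice of members. MMP25-AS1, TENM3-AS1, ADAMTS19-AS1, PCOLCE-AS1 and PXN-AS1 have partners of a similar kind and were not listed. In shARID1A/B.2.3 MMP25-AS1 and TENM3-AS1 were higher and the others lower. In shARID1A.4 MMP25-AS1 was higher, ADAMTS19-AS1 and PXN-AS1 were lower, and TENM3-AS1 and PCOLCE-AS1 were not called. LOXL1-AS1, beside the gene of a lysyl oxidase, had 115, 92.9 and 127 in Control, 38.9, 32.1 and 35.9 in shARID1A.4, and 109, 107 and 100.2 in shARID1A.2. Its log2 fold change was -1.61 in shARID1A.4 and -0.07 in shARID1A.2. The summed level of 10 mesenchymal markers, most of it VIM, was 81220 to 83420 in Control, 48500 to 48630 in shARID1A.4, 49850 to 50630 in shARID1A/B.2.3, 57610 to 65030 in shARID1A/B.4.2 and 76230 to 78040 in shARID1A.2. Single markers did not share this order, and COL1A1 had a mean of 12930 in Control, 5627 in shARID1A.4 and 1364 in shARID1A.2. Of these markers PRRX1 was at 0 and COL1A2 at 18.5 in Control, and the other 8 had a mean of 50 or more. The part of these markers in the result was not tested.

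Of 5 members beside cell cycle, replication or repair genes, none was higher and 3 were lower in shARID1A.4, and none was higher and 4 were lower in shARID1A/B.2.3, with medians of -0.76 and -0.99 (all genes tested 37% higher and 36.6% lower, and 35.2% and 34%). OIP5-AS1 fell by 0.76 and 0.99 on the log2 scale in these conditions. In shARID1A.2, 3 were higher and 2 lower. The counts depend on which members were listed, and CCNT2-AS1, whose partner serves an elongation kinase, was among them. MCPH1-AS1 and PAXIP1-AS2, whose partners also act in DNA repair, were not listed. MCPH1-AS1 was higher in shARID1A.4, and PAXIP1-AS2 was lower in shARID1A.4 and higher in shARID1A/B.2.3. Of 23 antisense lncRNAs chosen because they are widely studied, 15 were higher and 6 lower in shARID1A.2, and 6 were higher and 12 lower in shARID1A/B.2.3 (all genes tested 37.9% and 38.2%, and 35.2% and 34%), close in shARID1A.2 to the share of all members. KTN1-AS1 and NNT-AS1 rose by 1.54 and 1.22 in shARID1A.2, and FGD5-AS1 and THAP9-AS1 fell by 0.73 and 0.82. GABPB1-AS1, in none of these lists, had 1531 to 1642 in Control and 4417 to 4535 in shARID1A.2, a log2 fold change of 1.49, and was chosen after its values were seen.

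The labels were also compared with each other, without Control, each as the mean of its 2 shRNA conditions. Against the libraries labelled shARID1A/B, those labelled shARID1A had 82 members higher and 29 lower (all genes tested 30.5% and 28.7%). TMEM108-AS1 and HECW2-AS1 were lower there, with log2 differences of -2.64 (SE 0.191) and -2.01 (SE 0.238). Against shARID1B, shARID1A had 70 members higher and 50 lower (all genes 34.6% and 32.8%), and TMPO-AS1 was lower by a log2 difference of -1.61 (SE 0.0576). Against shARID1B, shARID1A/B had 53 higher and 71 lower (all genes 35.1% and 35%). In that comparison ROR1-AS1 differed by -2.67 (SE 0.142), TMPO-AS1 by -1.90 and FBXL19-AS1, beside the gene of a CpG-binding F-box protein, by -1.42, while ZNF571-AS1 differed by 1.39. With the pairs of shRNA conditions pooled as 6 libraries, so that their differences entered the spread, 13 members were higher and 5 lower for shARID1A against shARID1A/B, 27 and 18 for shARID1A against shARID1B, and 23 and 25 for shARID1A/B against shARID1B. The share of all genes called was not counted for these pooled comparisons.

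The 2 shRNA conditions of a label also differed from each other. In shARID1A.2, 102 members were higher than in shARID1A.4 and 31 lower (all genes tested 38.4% and 37.3%), with a median log2 difference of 0.40. In shARID1A/B.2.3, 35 were higher than in shARID1A/B.4.2 and 108 lower (all genes 37.1% and 37.8%), with a median of -0.46. Between shARID1B.2 and shARID1B.3, 63 were higher and 47 lower (all genes 33% and 33%). SOCS2-AS1, beside the gene of a suppressor of cytokine signalling, had 307, 344 and 342 in shARID1A.2 but 53.4, 65.4 and 66.9 in shARID1A.4, and 47.6, 58.4 and 38.0 in shARID1A/B.2.3 but 332, 354 and 348 in shARID1A/B.4.2. Control, at 99.8, 86.2 and 92.4, lay between them, and the log2 differences were 2.41 and -2.84 (SE 0.126). PDCD4-AS1 differed in the same way, by 2.56 and -2.46, and TMEM51-AS1 in the opposite way, by -2.90 and 2.59. For TMEM108-AS1 the differences were 0.56 (SE 0.271, adjusted p = 0.0647) and 0.41 (adjusted p = 0.171).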

How the data were processed

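RNA-Seq of 21 SK-N-BE(2) libraries was analysed from 1 table of 60728 genes. Per the submitters' processing notes, reads were processed with STAR 2.5.3a, RSEM 1.3.0 and DESeq2 1.26.0 on GRCh38, from a TruSeq Stranded mRNA kit. The annotation release and the strand setting are not given in the sources used here. The deposited values are a signal made by the authors, reads divided by 1 size factor per library (0.841 to 1.29), and 100% came out as whole reads within 0.1 read. The authors' own comparison tables hold fold changes and p-values and were not used.

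The main test was limma 3.58.1 (R 4.3.3), with trend, on log2(value + 1) over the 7 conditions and 21 libraries, because the values are not counts, with Benjamini-Hochberg adjustment over 18584 genes kept by edgeR's filterByExpr. Fold changes are on the log2(value + 1) scale, which understates changes of low genes. edgeR 4.0.16 and DESeq2 1.42.0 on the recovered reads were alternatives. On simulated data for shARID1A.2 against Control with 18584 genes, 200 genes with a mean of 50 or more were changed. The log2 fold changes set were 1 or 2 in size. All 100 of 100 genes changed by the smaller fold and 100 of 100 changed by the larger fold were found, with 16 false calls. Smaller folds, lower genes and changes in most genes, as called in the data, were not simulated. Depth, 27954334 to 41077638 reads, limits low members. The p-values rest on the spread between libraries within conditions, estimated over all 21 libraries. They do not cover the spread between the shRNA conditions of a label. Replicates differed beyond counting noise in all 21 pairs. Replicate numbers did not pair samples, since same-number correlations lay between -0.088 and 0.053.

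Partners were matched by symbol (172) or older symbol (1), positions come from GENCODE 29 by gene identifier, and promoters from RefSeq (GRCh38.p14). The named members were the 20 with the largest log2 fold change in size among those with an adjusted p under 0.05 and a size of 1 or more in any comparison with Control, with list members as examples and partners beside them. Members named only for a comparison between silenced conditions were chosen after their values were seen. Members, lists and tests were chosen with earlier results of these data known.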

Additional observations from a re-analysis of the deposited data

Results flagged for a closer look

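SOCS2-AS1, among the named members, had opposite called effects under the 2 shRNA conditions of a label. So did other members: 28 of 175 for shARID1A.2 and shARID1A.4, 29 for shARID1A/B.2.3 and shARID1A/B.4.2, and 11 for shARID1B.2 and shARID1B.3. The share of opposite calls over all genes tested was not counted, so these counts do not set the members apart. All genes tested also differed between such conditions, with 38.4% higher and 37.3% lower in shARID1A.2 than in shARID1A.4. For shARID1A/B.2.3 against shARID1A/B.4.2 these shares were 37.1% and 37.8%, and for shARID1B.2 against shARID1B.3 33% and 33%. The values of SOCS2-AS1 follow. Its log2 fold change against Control was 1.82 in shARID1A.2 and -0.58 in shARID1A.4, and the direct difference of the 2 conditions was 2.41 (SE 0.126, limma adjusted p = 7.48e-15). In the libraries labelled shARID1A/B it was -0.96 in shARID1A/B.2.3 and 1.88 in shARID1A/B.4.2, with a direct difference of -2.84 (SE 0.126, adjusted p = 2.88e-16). ARID1A and ARID1B levels are given in the report for each condition, and their part in this difference was not tested.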

How the results depend on the processing

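Pooling the 2 shRNA conditions of a label changed most counts. Members lower and higher than Control became 21 and 48 for shARID1A, 4 and 22 for shARID1B, and 17 and 35 for shARID1A/B. Between labels they became 5 and 13 for shARID1A against shARID1A/B, 18 and 27 for shARID1A against shARID1B, and 25 and 23 for shARID1A/B against shARID1B. Sense partners called in any comparison fell to 69 from 160. Calls also became fewer over all genes tested, of which 17.8% were higher than Control for shARID1A, 7.6% for shARID1B and 11.9% for shARID1A/B. No share over all genes was counted between labels or beside the partners. Of 120 named log2 fold changes, 36 lost their call, as the pooled fit holds the shRNA difference in its spread. Those that turned were SOCS2-AS1 in shARID1A.4 (0.62) and shARID1A/B.2.3 (0.46), ROR1-AS1 in shARID1B.3 (-0.46), TMEM51-AS1 in shARID1B.3 (-0.37) and shARID1A/B.2.3 (-1.25), and DICER1-AS1 in shARID1A/B.2.3 (0.66). Scaling to total reads gave 19 lower members in shARID1A/B.4.2. It raised the share of higher among called members from 74.4% to 84.6% in shARID1B.2 and from 74% to 86.3% in shARID1A/B.4.2, and turned ATP2B1-AS1 to 0.0211 in shARID1B.2 and 0.00827 in shARID1B.3, the latter also under TMM scaling (0.00670).

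Leaving out 1 library at a time kept each count near its value: in shARID1A.2 members higher lay between 106 and 113 and members lower between 32 and 34. Values near 0 turned: ATP2B1-AS1 ranged from -0.29 to 0.10 in shARID1B.2 and from -0.20 to 0.13 in shARID1B.3, TMEM51-AS1 from -0.10 to 0.18 in shARID1B.3, from -0.0719 to 0.125 in shARID1A/B.2.3 and from -0.153 to 0.0441 in shARID1A.4, VLDLR-AS1 from -0.0113 to 0.304 in shARID1A.2 and from -0.11 to 0.21 in shARID1B.2, TMPO-AS1 from -0.0287 to 0.0531 in shARID1B.2, and DICER1-AS1 from -0.17 to 0.00417 in shARID1A/B.2.3. Calls were lost without 1 library for TSPEAR-AS2, TMPO-AS1 and PAXBP1-AS1 in shARID1B.3, ADAMTS9-AS2 in shARID1B.2, and CCNT2-AS1 and DDN-AS1 in shARID1A/B.4.2. With the replicate number as a block, shARID1A.2 gave 112 higher and 34 lower, and the 26 counts moved by at most 2. Under the 10 other alternatives 1168 of 1188 named values kept their direction and call. Requiring 10 reads in every library kept 173 of 175 members. TMEM108-AS1 and HECW2-AS1, the members with the largest decreases, did not pass. Both had their lowest values in shARID1A.4, so this alternative does not cover them.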

Other observations

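Of the antisense rows below the Control minimum, 85 reached a mean of 50 or more in a silenced condition, and since they were found by that rise only their levels are given. EXTL3-AS1 had a mean of 42.3 in Control and 239 in shARID1A.2, with libraries between 227 and 259. TMEM9B-AS1 had 39.7 in Control, 209 in shARID1A.2 and 162 in shARID1A/B.4.2, but 40.02 in shARID1A.4 and 45.7 in shARID1A/B.2.3. L3MBTL2-AS1 stood out by its low Control level of 6.26. It reached 196 in shARID1A.4, with libraries between 191 and 199, and 128 in shARID1A/B.2.3, while it had 3.60 in shARID1A.2 and 3.59 in shARID1A/B.4.2. PRKCQ-AS1 was likewise highest in shARID1A.4, at 164, against 46.4 in Control and 41.4 in shARID1A.2.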
